A study of Mus musculus with 22 samples.

Results

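CXC chemokines are small secreted proteins that attract leukocytes, and 10 of their genes (Cxcl1, Cxcl2, Cxcl3, Cxcl5, Cxcl9, Cxcl10, Cxcl12, Cxcl14, Cxcl15 and Cxcl16) were followed in FE1 cells exposed to carbon nanotubes. The probes were chosen by the transcript accession that the array assigns to them, which gave 12 of 55681 probes, or 10 of 20018 named genes. FE1 is an epithelial line from the lung of the Muta(TM)Mouse, and every sample was total RNA of this single line, grown with fetal bovine serum and murine epidermal growth factor. Mitsui7, a multi-walled carbon nanotube (MWCNT), was added for 24 h at 12.5 µg/ml for the low dose group (n = 6), at 25 µg/ml for the medium dose group (n = 5) and at 100 µg/ml for the high dose group (n = 6), and the control group (n = 5) held cells at 0 µg/ml. On each array the FE1 sample carried Cy5 and a reference pool of RNA from several mouse cell lines carried Cy3, so a log2 ratio gives the level of a transcript in FE1 cells relative to that pool. The culture model has no added leukocytes, the cells that these chemokines act on.

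In the lung, the chemokines fall into groups by receptor. Cxcl1, Cxcl2, Cxcl3 and Cxcl5 bind Cxcr2 and draw neutrophils, and Cxcl15, known as lungkine, is a neutrophil chemokine of lung and other epithelia. Cxcl9 and Cxcl10 are induced by interferon and bind Cxcr3 on T cells. Cxcl12 binds Cxcr4 and Ackr3 and is made constitutively by stromal cells, Cxcl14 is made constitutively by many epithelia, and Cxcl16 is a transmembrane ligand of Cxcr6 that proteases can release.

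The promoters of these groups differ in the letters they carry, and the stretches printed here are those around the motifs that the regulators described later are known to bind. RefSeq promoters of the mouse build GRCm38.p6, each running from 250 bases before to 50 bases after the gene start, were matched for 8 of the 10 genes. The NF-kappaB consensus was found in Cxcl1, Cxcl2, Cxcl3 and Cxcl10, beside 8.46% of 32851 promoters searched on both strands. In Cxcl1, Cxcl2 and Cxcl3 the match lay within 100 bases before the start and was the same palindromic run, read on both strands with overlap. Capitals mark the bases covered by NF-kappaB matches.
Cxcl1, chr5:90891165-90891194, plus strand: ctgtactccGGGAATTTCCCtggcccggag
Cxcl2, chr5:90903793-90903822, plus strand: ctgagctcaGGGAATTTCCCtggtccccgg
Cxcl3, chr5:90786019-90786048, plus strand: agctgcgggGGGAATTTCCCcagcccgggc
Cxcl10, chr5:92348973-92349002, minus strand: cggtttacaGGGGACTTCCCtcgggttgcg

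Cxcl10 also held an interferon-stimulated response element, searched as 2 GAAA runs with 2 bases between them, as did Cxcl14, beside 3.44% of all promoters. The Cxcl12 promoter held no NF-kappaB or interferon element in these letters and 5 GC boxes (GGGCGG on either strand, the last pair sharing a base), a motif present in 35.7% of all promoters. It is printed because Cxcl12 carried the change described later, and the capitals mark its GC boxes.
Cxcl12, chr6:117168285-117168534, plus strand, the 250 bases before the start: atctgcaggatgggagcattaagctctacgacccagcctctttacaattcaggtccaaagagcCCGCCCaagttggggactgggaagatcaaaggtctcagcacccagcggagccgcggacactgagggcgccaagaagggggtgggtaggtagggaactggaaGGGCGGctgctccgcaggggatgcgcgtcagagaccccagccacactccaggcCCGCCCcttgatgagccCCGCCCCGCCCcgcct

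The arrays differed in brightness, with median Cy5 signals of 79 to 110 and median Cy3 signals of 42 to 104. Between 23688 and 39139 probes were detected per array, detection meaning a Cy5 signal at least 3 trimmed SDs over the trimmed mean of the negative control spots. That detection level ran from 74.3 on high dose replicate 1 to 119 on control replicate 4, so counts of detected arrays depend partly on the background of each array. The arrays lay on 5 slides, 4 of which held control arrays, and slide was a term of the model. Slide 2, with replicate 4 of each group, had 3.94% to 6.22% of spots marked as outliers, and no other array had more than 2.51%. On a scale over 19430 probes where the control mean is 0 and the high dose mean is 1, low dose replicate 1 lay at 0.857 and the other low dose arrays between 0.505 and 0.729. Medium dose replicate 2 lay at 0.682 and the other medium dose arrays between 0.756 and 0.922. Results that changed without these 2 arrays are given both ways. The labelled cell type was only partly borne out by its markers. Of 6 epithelial markers, Krt8 and Krt18 were detected on 22 of 22 arrays, Krt19 on 21, Cldn4 on 16, Epcam on 10, and Cdh1, the epithelial cadherin, on 0. The single Cdh1 probe had a median Cy5 signal of 68.4 and a mean control log2 ratio of -0.32. Whether it reports transcript was not checked. The mesenchymal markers Col1a1, Col1a2, Col3a1, Vim, Pdgfra and Thy1 were detected on all 22. In controls the log2 ratio averaged -4.35, -5.62 and -4.91 for Krt8, Krt18 and Krt19. That of the mesenchymal markers lay between -2.76 (Thy1) and 1.77 (Col1a1). Of 2 alveolar type II markers, Sftpb was detected on 3 arrays and Sftpc on 17. The study describes 3 separate exposure experiments, and the labels do not assign arrays to experiments or days. Arrays of a group can therefore share an exposure, and independent exposures can be fewer than arrays. The p-values measure the spread between these arrays, part of which may be technical.

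Of the 10 chemokines, Cxcl12 was the only one called at any dose, and it was lower in exposed cells. Cxcl10 was strongly detected on all 22 arrays and was not called. Cxcl1, Cxcl2, Cxcl3, Cxcl5 and Cxcl9 were not detected in enough FE1 arrays to be tested, before or after exposure. Cxcl14, Cxcl15 and Cxcl16 were measured close to the detection level and were not called. A call required an adjusted p of 0.05 or lower in limma, a change of 1.5-fold or more, and detection on 4 or more arrays in either of the groups compared. Of 4 genes tested at the low dose, 1 was called, beside 3.26% of all tested probes (1.93% lower). No gene was called by its brightest probe among 5 tested at the medium dose, beside 5.61% of all tested probes (2.92% lower). At the high dose 1 of 4 was called, beside 7.55% (4.23% lower). The median log2 change of the tested genes was -0.28, -0.26 and -0.23 at the 3 doses, and that of all tested probes lay between 0.006 and 0.011.

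**Figure D1:**
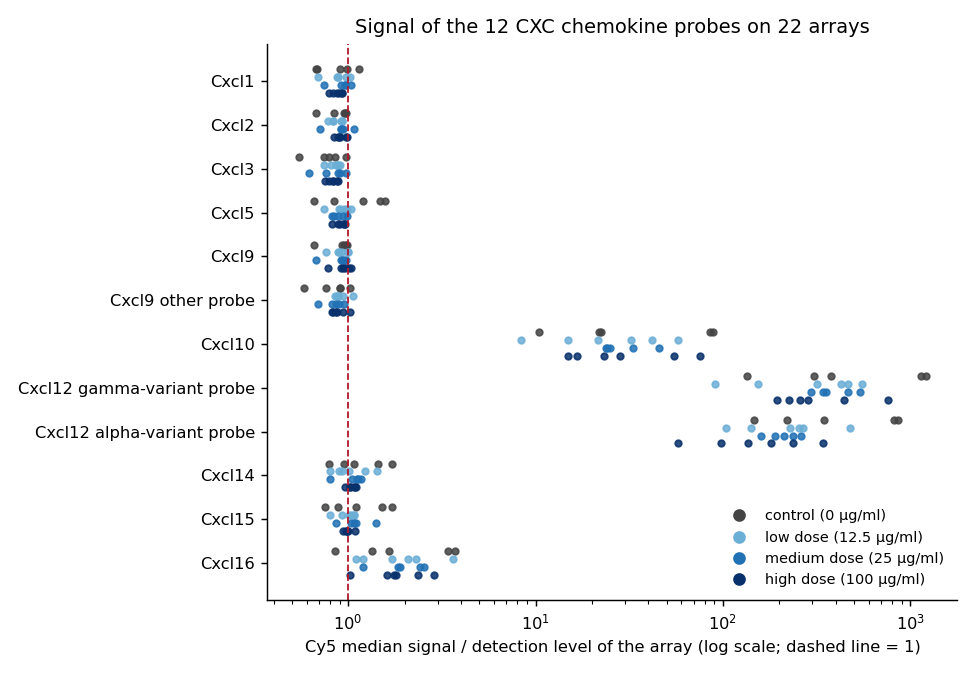
Cy5 median signal of each of the 12 CXC chemokine probes divided by the detection level of the same array (log axis), with 1 point per array and 22 arrays in 4 groups, control (0 µg/ml) to high dose (100 µg/ml). Cxcl10 and both Cxcl12 probes lie to the right of the dashed line at 1 on every array, whereas Cxcl1, Cxcl2, Cxcl3, Cxcl5 and Cxcl9 cluster around or to its left in every group.

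The neutrophil chemokines of the Cxcr2 group were at or under the detection level at every dose. Cxcl1 was detected on 3 of 22 arrays, 1 each in the control, low and medium dose groups and 0 in the high dose group, with Cy5 signals between 0.676 and 1.14 times the level. The same Cxcl1 probe gave a Cy3 signal of 859 to 3696 in the reference pool and was detected there on all 22 arrays, so the probe reported transcript where it was present. Its log2 ratio averaged -4.91 ± 0.89 (SD, n = 5) over control arrays and -5.09 ± 0.62 (SD, n = 6) over high dose arrays, and these averages are bounds because the FE1 signal was not above background. Cxcl2 was detected on 1 of 22 arrays, a medium dose array, and Cxcl3 on 0. In the reference pool Cxcl2 was detected on 16 arrays and Cxcl3 on 13, with Cy3 signals of only 30 to 51.5 and 22 to 60. Both channels were near background for Cxcl2 and Cxcl3. Unlike for Cxcl1, the pool therefore does not show that either probe reports transcript. No fold was given for these genes, since the groups compared were all at the detection level.

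Cxcl5, also known as LIX, was the exception within this group, because its few detections were mainly in controls. Its signal was 1.57, 1.21 and 1.48 times the detection level on control replicates 1, 2 and 3, and 0.655 and 0.845 times the level on replicates 4 and 5. In exposed cells it was above the level on 1 of 17 arrays, low dose replicate 5, at 1.04 times. The groups overlapped, and with 3 control arrays detected Cxcl5 was 1 array short of the minimum for a test. The level was 119 on control replicate 4, beside 74.9 to 76.9 on replicates 1 to 3. Its signal of 78 on replicate 4 would have counted as detected against those lower levels. The scanner marked Cxcl5 as well above background on 3 control arrays and on no exposed array.

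Cxcl15 lay just above or just below the detection level. It was detected on 13 of 22 arrays, namely 3 arrays of the control, 4 of the low, 4 of the medium and 2 of the high dose group, with signals between 0.756 and 1.72 times the level. The reference pool was near background as well, with Cxcl15 detected there on 7 of 22 arrays, so both sides of its ratio were weak. The log2 ratio of the controls was 1.01, 0.52, 1.28, 0.59 and 0.21. The low dose arrays ranged from 0.17 to 0.46 with a median of 0.27, and the medium dose arrays were 0.27, 0.31, 0.25, 0.46 and 0.21. The high dose arrays ranged from 0.06 to 0.50 with a median of 0.17. Controls were both higher and more scattered, and each exposed group overlapped them. The slide-adjusted log2 change at the low dose was -0.42 (SE 0.13), with an adjusted p of 0.0838 in limma with Benjamini-Hochberg adjustment. At the medium dose it was also -0.42 (SE 0.13), with an adjusted p of 0.0685, so neither was called. The high dose was not tested, because 3 control and 2 high dose arrays were detected. Near the detection level a ratio made without background subtraction can understate a change. With both channels near background, the size of a background-corrected change is uncertain as well. Using the scanner's background-corrected log ratio, the low and medium dose changes were -1.80 (adjusted p = 0.214) and -1.55 (adjusted p = 0.282).

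Of the interferon-inducible pair, Cxcl9 was at the detection level and Cxcl10 far above it. The brighter Cxcl9 probe was detected on 2 of 22 arrays, both at the high dose, at 1.01 and 1.03 times the level, and the other probe on 3. Neither was tested. Cxcl10 was between 8.40 and 88.7 times the level. Its log2 ratio was 3.26, 2.68, 2.37, 2.00 and 1.97 on the 5 control arrays. Low dose values ranged from 1.61 to 3.27 (median 2.15), medium dose values were 2.78, 2.44, 1.98, 1.88 and 2.19, and high dose values ranged from 1.77 to 3.00 (median 2.26). Replicate 1, which lay on slide 1, was the highest array of each group, and the groups overlapped widely.

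The changes of Cxcl10 were small beside the spread. They were -0.15 (95% interval -0.49 to 0.19), -0.20 (-0.55 to 0.15) and -0.15 (-0.49 to 0.19) on the log2 scale at the low, medium and high dose. The adjusted p-values in limma were 0.781, 0.676 and 0.766. Each interval lay inside a 1.5-fold change in either direction.

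**Figure D2:**
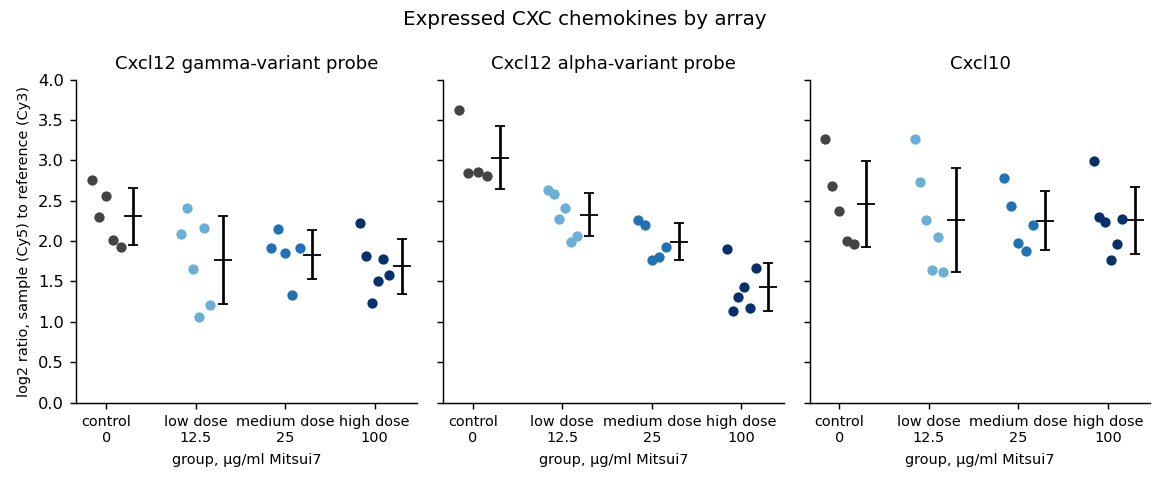
Log2 ratio of the FE1 sample (Cy5) to the reference pool (Cy3) on each array, by group, for the Cxcl12 gamma-variant probe, the Cxcl12 alpha-variant probe and Cxcl10, with points for arrays and black bars for mean ± SD. The alpha-variant probe falls from a control mean of 3.04 to a high dose mean of 1.43 with no overlap, the gamma-variant probe overlaps between groups, and Cxcl10 stays between 1.61 and 3.27.

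Cxcl12 was measured by 2 probes that the array assigns to different transcript variants, alpha and gamma, which share their first exons and differ at the end of the transcript. Whether either probe also binds the other variant was not checked. Both were detected on all 22 arrays and neither was saturated. The gamma-variant probe was the brighter of the pair and stands for the gene in the counts.

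The gamma-variant probe had log2 ratios of 2.75, 2.29, 2.56, 2.01 and 1.93 in controls. At the low dose the values ranged from 1.07 to 2.41 (median 1.87), at the medium dose they were 1.91, 2.15, 1.85, 1.33 and 1.92, and at the high dose they ranged from 1.23 to 2.23 (median 1.68). The groups overlapped, with 3 of 6, 4 of 5 and 5 of 6 exposed arrays below every control. The slide-adjusted log2 change was -0.59 at the low dose (SE 0.16, 1.51-fold, adjusted p = 0.0389), -0.48 at the medium dose (SE 0.16, 1.39-fold, adjusted p = 0.101) and -0.67 at the high dose (SE 0.16, 1.59-fold, adjusted p = 0.00826). The low and high dose changes were called, and the medium dose change was not. On each of the 4 slides with controls the exposed arrays averaged lower at every dose, with differences of -0.94 to -0.27, -0.71 to -0.01 and -1.33 to -0.35 from the lowest to the highest dose. With the replicate number as a block, both calls were lost, at -0.48 (adjusted p = 0.107) for the low dose and -0.55 (adjusted p = 0.0312, under 1.5-fold) for the high dose. The low dose call was also lost when any of 8 arrays was left out and without the 2 arrays that lay apart (-0.60, adjusted p = 0.0770), and the high dose call was lost without control replicate 3 or without high dose replicate 3. With the scanner's background-corrected log ratio neither was called, at -0.24 (adjusted p = 0.523) and -0.56 (adjusted p = 0.0161, under 1.5-fold).

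The alpha-variant probe fell more and with less overlap. Its log2 ratio was 3.62, 2.85, 2.86 and 2.81 on control replicates 1, 2, 4 and 5, the spot of replicate 3 having been marked by the scanner and left out. Low dose values ranged from 1.99 to 2.64 (median 2.34), medium dose values were 2.26, 2.20, 1.77, 1.81 and 1.93, and high dose values ranged from 1.13 to 1.90 (median 1.37). All 17 exposed arrays lay below all 4 controls. From the lowest to the highest dose the slide-adjusted log2 changes were -0.61 (adjusted p = 0.0357), -0.997 (adjusted p = 0.000562) and -1.50 (adjusted p = 2.86e-06), each with an SE of 0.16. They came to 1.52-, 2.00- and 2.82-fold lower, and each was called. The low dose call was lost when any of 12 of the 22 arrays was left out. On the 3 slides with a control value the differences ran from -0.74 to -0.45, from -1.05 to -0.88 and from -1.72 to -1.14 at the 3 doses. Control replicate 1 lay above the other controls. Without it the changes were -0.44 (adjusted p = 0.142, no longer called), -0.83 (adjusted p = 0.00236) and -1.33 (adjusted p = 1.08e-05). Without the 2 arrays that lay apart they were -0.63 (adjusted p = 0.0683, no longer called), -1.01 and -1.50.

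**Figure D3:**
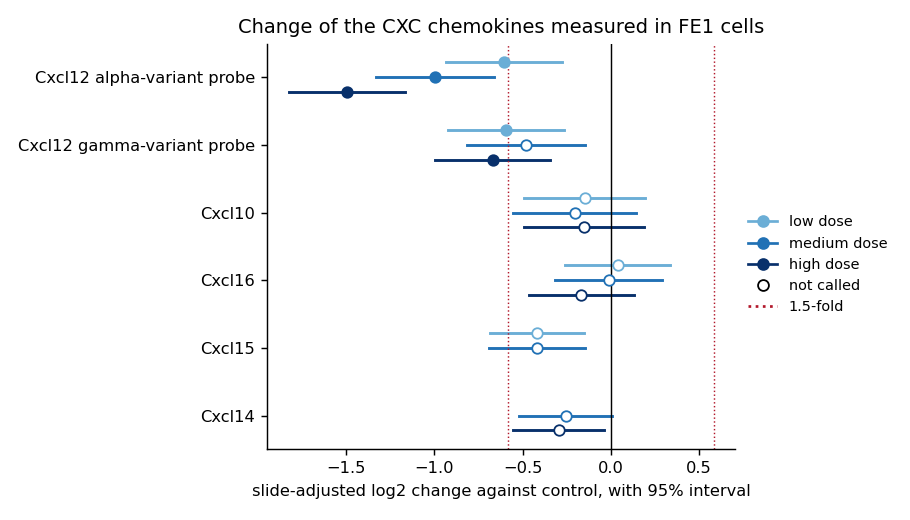
Slide-adjusted log2 change against control with its 95% interval at each dose for the 6 probes that could be tested, where filled points were called, open points were not, and dotted lines mark 1.5-fold. The Cxcl12 alpha-variant probe lies at -0.61, -0.997 and -1.50, and the intervals of Cxcl10 and Cxcl16 cross 0 at every dose.

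Between doses, the alpha-variant probe was lower at the high dose than at the low dose by -0.89 on the log2 scale (SE 0.13, adjusted p = 0.00669 in limma, 6 of 6 high dose arrays below every low dose array). For this comparison 0.248% of 33098 tested probes were called (0.211% lower and 0.0363% higher). The gamma-variant probe differed by -0.08 (95% interval -0.38 to 0.23) between the same doses. For the alpha-variant probe the steps from low to medium (-0.39) and from medium to high (-0.50) were not called, in comparisons in which 0% of probes were called.

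The difference between the 2 Cxcl12 probes on the same array, a measure chosen after its values were seen, is given as a description with no test. Alpha minus gamma averaged 0.79 ± 0.16 (SD, n = 4) in control arrays. The averages of the low, medium and high dose arrays were 0.56 ± 0.53 (SD, n = 6), 0.16 ± 0.24 (SD, n = 5) and -0.25 ± 0.34 (SD, n = 6). The mean differed from that of the controls by -0.23 at the low dose, by -0.63 at the medium dose, where 5 of 5 arrays lay below every control, and by -1.04 at the high dose, where 6 of 6 did. Within slides the medium dose difference from control ran from -0.87 to -0.37 and the high dose difference from -1.22 to -0.79. These ratios do not give the amount of either variant.

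**Figure D4:**
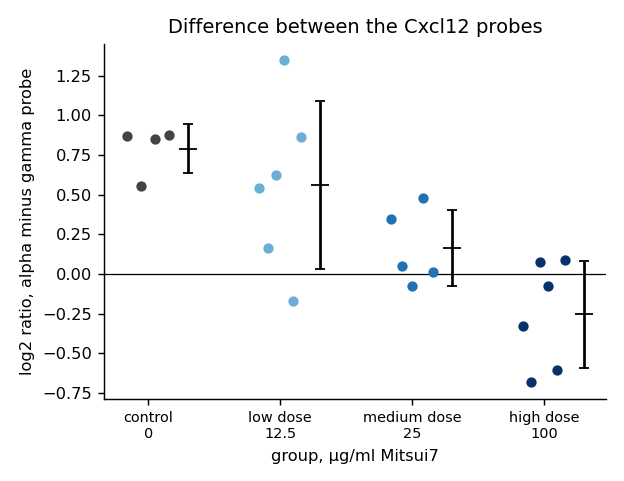
Log2 ratio of the Cxcl12 alpha-variant probe minus that of the gamma-variant probe on each array, by group and dose in µg/ml, with mean ± SD as black bars. The controls average 0.79 and the high dose arrays -0.25, with low dose arrays spread across both ranges.

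Cxcl12 did not move alone among genes of stromal cells. Of the 6 mesenchymal markers, 4 were called lower at every dose, namely the collagens Col1a1 (-0.88, -1.08 and -1.34 at low, medium and high dose), Col1a2 (-0.77, -1.24 and -1.52) and Col3a1 (-0.83, -1.35 and -1.70) and the growth factor receptor Pdgfra (-1.27, -1.37 and -1.53), all log2 changes, beside 1.93%, 2.92% and 4.23% of all tested probes called lower. Vim and Thy1 were not called at any dose, with changes between -0.16 and 0.39. The mean log2 ratio of the 6 markers ranged from -0.16 to 0.03 over control arrays. It ranged from -1.05 to -0.26, from -1.07 to -0.80 and from -1.37 to -0.69 over low, medium and high dose arrays. Their summed Cy5 signal ranged from 124556 to 643858 in controls and from 119309 to 322661 at the high dose, and none of the 6 was undetected on any array. The part of these markers in the Cxcl12 result was not tested. In bulk RNA, fewer cells of a type and less RNA per cell cannot be told apart. Of 4 epithelial markers tested at each dose, 0 were called, and of 4, 5 and 4 leukocyte markers tested at the low, medium and high dose 0 were called. Probes of the leukocyte list were detected to very different extents, Itgam and Cd3e on 22 of 22 arrays, Ptprc on 21, Adgre1 on 19, Lyz2 on 6, and the neutrophil markers S100a8 and S100a9 on 1 each, while Cd68 was not matched to a probe.

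The genes whose slide-adjusted ratios were most like those of Cxcl12, among 11670 compared, are given as a description. For the gamma-variant probe they were Samhd1 (Pearson r = 0.915 over 22 arrays), Camk4 (0.896 over 21) and Sh3glb2 (0.895 over 22). For the alpha-variant probe they were Nacc2 (0.954), Tgfb3 (0.944), a growth factor of the TGF-beta family, and Sipa1l2 (0.944), over 21 arrays. The 2 lists shared no gene. All of these values come from the same arrays and slides.

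Cxcl14 and Cxcl16 completed the measured genes. Cxcl14 was detected on 15 of 22 arrays at 0.793 to 1.72 times the detection level, and its log2 ratio averaged -0.91 ± 0.37 (SD, n = 5) in controls, beside -1.16 ± 0.22 (SD, n = 5) in medium dose arrays and -1.14 ± 0.47 (SD, n = 6) in high dose arrays. Its changes of -0.26 at the medium dose (adjusted p = 0.352) and -0.29 at the high dose (adjusted p = 0.191) were not called, and the low dose was not tested. With the scanner's background-corrected log ratio the high dose change of Cxcl14 was -1.49 and was called (adjusted p = 0.0316). Cxcl16 was detected on 21 of 22 arrays, and its log2 ratio averaged 0.40 ± 0.33 (SD, n = 5) over control arrays. Low, medium and high dose arrays averaged 0.44 ± 0.22 (SD, n = 6), 0.39 ± 0.15 (SD, n = 5) and 0.24 ± 0.33 (SD, n = 6). Its changes were 0.04, -0.01 and -0.17, with 95% intervals of -0.26 to 0.34, -0.32 to 0.29 and -0.46 to 0.13.

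The receptors that read these ligands showed no called change. Of 8 CXC receptors on the array (Cxcr1 to Cxcr6, Ackr1 and Ackr3), 4, 2 and 3 were detected widely enough to be tested at the low, medium and high dose, and 0 were called. Cxcr4, the signalling receptor of Cxcl12, was detected on 1 of 22 arrays, and Cxcr2, the receptor of the neutrophil chemokines, on 4. Ackr3, the scavenging receptor of Cxcl12, was detected on 15, with log2 changes of 0.05, -0.10 and -0.15.

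Among the other CXC ligands, Cxcl17, a chemokine of mucosal and airway epithelia, was called lower at every dose. Its log2 ratio was 4.04, 3.64, 4.06, 3.65 and 1.85 in controls. It ranged from -0.15 to 2.56 at the low dose, was 2.94, 2.07, 2.26, 2.01 and 1.59 at the medium dose, and ranged from 0.99 to 2.45 at the high dose. Control replicate 5 was low and the groups overlapped, with 2 of 6, 1 of 5 and 4 of 6 exposed arrays below every control. The slide-adjusted log2 changes were -1.60 (SE 0.33, adjusted p = 0.00647), -1.27 (SE 0.33, adjusted p = 0.0266) and -1.73 (SE 0.33, adjusted p = 0.00128). The medium dose call was lost without control replicate 1, 3 or 4 or medium dose replicate 2 or 3, and without the 2 arrays that lay apart (-1.13, adjusted p = 0.0732). All 3 calls were lost with the scanner's background-corrected log ratio (-1.24, -0.96 and -1.32, adjusted p = 0.367, 0.510 and 0.226) and without slide 1 (adjusted p = 0.0930, 0.275 and 0.0597), and the low and medium dose calls without a slide term (adjusted p = 0.0661 and 0.213). Pf4, a platelet chemokine, was detected on all 22 arrays and was not called, Ppbp was detected on 4 arrays and Cxcl13 on 0, and Cxcl11 was not matched to a probe. Of the 6 proteases that release or trim chemokines, Mmp2 was called lower at the high dose (-0.83, SE 0.25, adjusted p = 0.0462). That call was lost when any of 15 arrays was left out and with the scanner's log ratio (-1.01, adjusted p = 0.0606). The Mmp2 spots of slide 3 were marked and left out. Without the 2 arrays that lay apart the medium dose change of Mmp2 was called as well, at -0.99 (adjusted p = 0.00585) in place of -0.81 (adjusted p = 0.0788). Adam10, which sheds Cxcl16, had a log2 change of -0.57 at the high dose (adjusted p = 0.00222), under 1.5-fold.

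Of 10 genes of the NF-kappaB pathway and the inflammatory receptors that feed it, 9 were tested at each dose. At the low and medium dose 1 was called higher and 1 lower, and at the high dose 2 higher and 2 lower. Of all tested probes 1.32%, 2.68% and 3.32% were called higher and 1.93%, 2.92% and 4.23% lower at the 3 doses. Tnfaip3, which encodes the NF-kappaB inhibitor A20 and is itself a target of the pathway, rose by 0.78 (SE 0.17, adjusted p = 0.00909), 0.94 (SE 0.17, adjusted p = 0.00152) and 1.18 (SE 0.17, adjusted p = 6.68e-05) at the 3 doses. Every exposed array of Tnfaip3 lay above every control, whose log2 ratios were between -1.35 and -1.15. Rela, the p65 subunit, was called higher at the high dose (0.77, SE 0.16, adjusted p = 0.00287), where 2 of 6 arrays lay above every control. Its changes at the low dose (0.58, adjusted p = 0.0475, just under 1.5-fold) and medium dose (0.52, adjusted p = 0.0690) were not called. Il1r1, the receptor of interleukin 1, was called lower at every dose (-0.85, -0.80 and -1.22), and Tnfrsf1a, a receptor of tumor necrosis factor, at the high dose (-0.75). The low dose call of Il1r1 was lost when any of 5 arrays was left out and the medium dose call when any of 8 was, and both were lost without the 2 arrays that lay apart (-0.80, adjusted p = 0.0899, and -0.80, adjusted p = 0.0635). With the scanner's log ratio Il1r1 was called at no dose (-1.12, -0.91 and -1.28, adjusted p = 0.191, 0.296 and 0.0686). Nfkbia, the classical early feedback target, had log2 changes of -0.13, -0.12 and -0.16 and was not called. Cxcl1, Cxcl2 and Cxcl3, whose promoters carry the run printed above, remained at the detection level on these same arrays. For Cxcl2 and Cxcl3 the pool does not show that the probes report transcript. A link between these genes and the NF-kappaB list was not tested.

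Of 9 interferon response genes, 8 were tested at each dose, and 3, 2 and 4 were called higher at the low, medium and high dose with 0 lower, beside 1.32%, 2.68% and 3.32% of all tested probes called higher. Ifit1, an interferon-induced RNA-binding protein, changed most within the list, by 1.86, 1.70 and 2.00 (SE 0.18 each, highest adjusted p = 4.75e-06), and all 17 exposed arrays lay above every control. The size depended on the processing, the scanner's background-corrected log ratio giving 3.40, 3.40 and 3.74 for Ifit1, with each dose called. Ifit3 rose by 0.94, 0.62 and 0.82, Isg15 by 0.71 at the low dose and 0.59 at the high dose, and Irf9, a subunit of the interferon-activated factor ISGF3, by 0.64 at the high dose (adjusted p = 0.0476). With the scanner's log ratio Ifit3 was at 1.25, 1.01 and 1.26. A second, dimmer Isg15 probe, detected on 20 arrays, was called at no dose (0.58, 0.45 and 0.42, adjusted p = 0.0665, 0.170 and 0.164). The Irf9 spots of slides 2 and 3 and of low dose replicate 5 were marked and left out. The high dose calls of Irf9 and Isg15 were lost when any of 15 and any of 10 arrays was left out and without the 2 arrays that lay apart, and the medium dose call of Ifit3 when any of 5 was. Without those 2 arrays the limma change of Irf9 was 0.64 (adjusted p = 0.0524) and that of Isg15 0.58 (adjusted p = 0.00171), the latter under 1.5-fold. Stat2, Irf1, Irf7 and Gbp2 were not called, with changes between -0.59 and -0.02. Cxcl10, which carries both an interferon element and NF-kappaB matches in its promoter, had log2 changes of -0.20 to -0.15 on these arrays. A link between Cxcl10 and the genes of this list was not tested.

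Of 4 regulators of chemokine mRNA decay, Zfp36l1, which binds AU-rich elements and promotes decay, was called higher at every dose (0.81, 0.88 and 0.60, adjusted p = 0.000672, 0.000221 and 0.00392). Its high dose call was lost without control replicate 5 or high dose replicate 6. Zfp36, Zc3h12a and the brighter Elavl1 probe were not called. A second, dimmer Elavl1 probe, detected on 22 arrays, was called higher at the high dose (0.60, adjusted p = 0.000403 in limma). The brighter Elavl1 probe had a change of 0.16 there (adjusted p = 0.394). At the low and medium dose the dimmer probe changed by 0.38 and 0.48, under 1.5-fold. By their brightest probes, 0 of 3 receptors, 1 of 2 other ligands and 1 of 5 proteases tested at the high dose were called. So were 4 of 8 interferon response genes and 1 of 4 decay regulators, and the NF-kappaB list had 2 higher and 2 lower of 9. The lists were not tested as sets. The shares of all tested probes called at the low, medium and high dose were 3.26%, 5.61% and 7.55%.

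**Figure D5:**
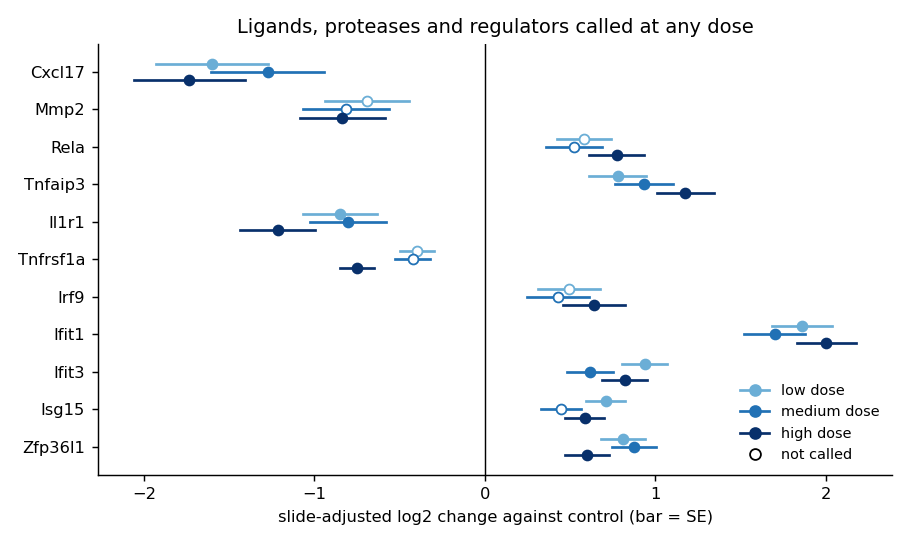
Slide-adjusted log2 change against control (bar: SE) at each dose for the 11 genes of the ligand, protease, NF-kappaB, interferon and mRNA decay lists called at any dose by their brightest probe, where open points were not called. Ifit1 lies between 1.70 and 2.00 and Tnfaip3 between 0.78 and 1.18 to the right of 0, and Cxcl17 and Il1r1 lie to the left at every dose.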

How the data were processed

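Per the file headers the arrays were read with Feature Extraction 10.7.3.1, and the authors deposited, for each spot, the median pixel intensity of both channels with marks for outliers and signal well above background. The log10 ratios that the scanner software added to the deposited files, and the authors' processed log2 ratios, whose normalization is not stated, served as alternatives. No dyes were swapped, so a dye bias of a probe cancels only in differences between groups.

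From the intensities, control spots were left out, marked spots were dropped, and the log2 ratio of Cy5 to Cy3, with no background subtracted, was loess-normalised array by array. The median was taken over spots of a probe. R 4.3.3 and limma 3.58.1 fitted group and slide over all 22 arrays, in place of the study's MAANOVA test, with Benjamini-Hochberg adjustment over the 55681 probes. The script was tested on simulated data. Detection used the 5% trimmed mean plus 3 trimmed SDs of 308 negative control spots. Named genes were the 10 members, every gene of the pathway lists called at any dose, and the 3 genes most similar to a member called at the high dose; a gene with several probes was given by the brightest. Members and lists were chosen with earlier results of these data known. The precision is limited by the number of arrays.

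Groups were read from the labels. All 31 pairs of arrays with the same replicate number in different groups deviated together from their group means (r 0.162 to 0.853, median 0.547), mostly sharing a slide, so the number was also fitted as a block. No arrays were duplicates (highest correlation of log2 ratios 0.961). Each of the 22 processed columns correlated best with its own array, and 18 of 22 arrays with their own column (lowest own correlation 0.840). The detection of 1 leukocyte marker is not reported here.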

Additional observations from a re-analysis of the deposited data

Results flagged for a closer look

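The Cxcl12 alpha-variant probe had a log2 ratio of 3.62 on control replicate 1, far from the other 3 control values, the nearest of which was 2.86. Cxcl15 had a log2 ratio of 0.50 on high dose replicate 4, apart from the other 5 high dose arrays, whose highest was 0.22, and this array was on slide 2. Of 24 groups of arrays examined in this way, chance alone places about 1 in 20 apart. The change of the Cxcl12 alpha-variant probe differed between doses, the high dose lying -0.89 from the low dose (limma adjusted p = 0.00669). The difference was called in 38 of 40 alternatives, and it was no longer called after median centring (-0.78, adjusted p = 0.9999) or without slide 3 (-0.88, adjusted p = 0.0775).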

How the results depend on the processing

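The change of the Cxcl12 alpha-variant probe at the high dose was called in all 40 alternatives (-1.62 to -1.33). The medium dose change was not called when arrays were median centred (-0.87) or slide 1 was left out (-0.96, where 3 control and 3 medium dose arrays remained, under the minimum of 4 for detection), and the low dose change was not called in 22 of 40 (-0.74 to -0.44 over all 40), namely without each of slides 1 to 5, without each low dose array, without control replicate 1, 3, 4 or 5, without high dose replicate 2 or 5, without both arrays that lay apart, after median centring, with the authors' values, with only the groups compared and with an ordinary linear model. The number of genes called at the low dose, 1 as reported, was 0 after median centring, with the scanner log ratio, with the authors' values, without a slide term, with the replicate block, with slide as a random block, with only the groups compared, with an ordinary linear model, at 2-fold, without slide 1, 2, 3 or 4, and without both arrays that lay apart. Leaving out 1 array gave 0 to 1, with 0 without control replicate 1, 3 or 4, low dose replicate 1, 3, 4 or 6, or high dose replicate 3. At the high dose the number, 1 as reported, was 0 after median centring, without a slide term, with the replicate block, at 2-fold and without slide 3, and leaving out 1 array gave 0 to 1. With the scanner log ratio the high dose count of 1 was Cxcl14 and not Cxcl12. At the medium dose the number was 0 and rose to 1 when any probe of a gene counted, through the alpha-variant probe. The replicate block changed no other call of the CXC chemokines. Under the replicate block Mmp2 was also called at the low and medium dose, and the high dose call of Isg15 was lost. The cause of the other losses was not tested.

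Uncalled changes near 0 turned sign. For the gamma-variant probe at the high against the low dose the change was 0.025 after median centring and 0.0030 without slide 1, and leaving out 1 array gave -0.16 to 0.021. Cxcl10 at the low dose was 0.045 with the scanner log ratio. Cxcl16 at the low dose was -0.10 with the authors' values, -0.058 without slide 2 and -0.025 without slide 3, and -0.041 to 0.13 leaving out 1 array. Cxcl16 at the medium dose was 0.15 without slide 1, 0.026 without slide 4 and 0.053 without both arrays that lay apart, and -0.094 to 0.079 leaving out 1 array. The Cxcl12 probe difference from control, at the medium and high dose, was -0.73 and -0.99 without slide 1 and -0.56 and -1.08 without slide 4, and the medium dose value was -0.47 with the scanner log ratio. Median centring also ended calls, at 1 or more doses, of Cxcl17, Tnfaip3, Rela, Il1r1, Tnfrsf1a, Ifit3, Isg15, Irf9, Zfp36l1, Col1a1 and Col1a2 and turned none of their directions. The signal over background limits Cxcl1, Cxcl2, Cxcl3, Cxcl5 and Cxcl9, for which no change could be measured.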
